A study of Saccharomyces cerevisiae with 6 samples.

Results

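The aldehyde dehydrogenase family of *Saccharomyces cerevisiae* was described from RNA-Seq of unfixed yeast. The 5 members were taken by their locus tags, namely *ALD2* (YMR170C), *ALD3* (YMR169C), *ALD4* (YOR374W), *ALD5* (YER073W) and *ALD6* (YPL061W), and all 5 were present among the 5793 features of the deposited table. The strain was BJ5464, which the labels describe as delta-URA3. It was grown in rich glucose medium at 28 °C to an OD600 of 0.75, and the culture was then divided. The heat shock group (3 libraries) came from a part exposed to 37 °C during 20 min, and the optimal growth group (3 libraries) from the part left unstressed. The libraries of a group were made from aliquots of 2 mL of the same part of the culture, so they are not independent cultures.

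The table gave 1 level per feature, the log2 mean CPM over the 6 libraries of both groups together. CPM scales the reads of each gene to a common library total. The values below are therefore the authors' means, with neither a standard deviation nor a value per group or per library. The difference between heat shock and optimal growth was not analysed here, because the columns that compare the groups are the authors' own comparison. A member that was high in one group and low in the other would have a mean between them, so a mean level describes neither temperature alone. Depth per library is unknown. Over all features the log2 mean CPM ran from -0.55 to 14.12, with a median of 6.26. *URA3*, the gene that the labels give as deleted, was listed at a log2 mean CPM of 7.10.

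Aldehyde dehydrogenases oxidise reactive aldehydes to acids and pass the electrons to NAD+ or NADP+. In yeast grown on glucose, pyruvate decarboxylase makes acetaldehyde. Most of it is reduced to ethanol, and part is oxidised to acetate, the precursor of cytosolic acetyl-CoA. Ald6 is the main cytosolic enzyme of that step and a source of NADPH. Ald4 and Ald5 are the mitochondrial enzymes, and Ald4 is the one needed for growth on ethanol. Ald2 and Ald3 are cytosolic enzymes that make beta-alanine from an aldehyde derived from polyamines, a step towards pantothenate and coenzyme A, and they are known as stress-responsive, glucose-repressed genes.

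The pair *ALD2* and *ALD3* lies in tandem on the minus strand of chromosome XIII (assembly R64, 1-based coordinates). *ALD2* runs from 601562 to 603082 and *ALD3* from 599352 to 600872, each with 1 exon and a coding length of 1521 bases, and 689 bases separate them. Of 1521 aligned coding bases, 1396 are identical (91.8%), and the alignment has 0 gaps. The first 329 bases of both coding sequences are the same, and their opening stretch of 120 bases is shown because a read from it cannot be assigned to one gene by its sequence. It lies at chrXIII:602963-603082 in *ALD2* and at chrXIII:600753-600872 in *ALD3*, and it is printed 5′ to 3′ along the genes, without capitals because no base differs.
ALD2 and ALD3, coding bases 1 to 120: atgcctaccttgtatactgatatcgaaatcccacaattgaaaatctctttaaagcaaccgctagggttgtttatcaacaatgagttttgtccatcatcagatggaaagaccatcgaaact

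The end of that shared run is shown next, over coding bases 301 to 360, with the bases that differ in capitals. The run stops within this stretch, which lies at chrXIII:602723-602782 in *ALD2* and at chrXIII:600513-600572 in *ALD3*.
ALD2, coding bases 301 to 360: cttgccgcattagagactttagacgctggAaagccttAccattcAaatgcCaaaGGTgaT
ALD3, coding bases 301 to 360: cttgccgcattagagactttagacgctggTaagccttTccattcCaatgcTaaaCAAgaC

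The 60 bases in which the genes differ most lie near the 3′ end of the coding sequence, where 21 bases differ. They are shown because reads from here can be told apart. They lie at chrXIII:601574-601633 in *ALD2* and at chrXIII:599364-599423 in *ALD3*, and capitals again mark the differences.
ALD2, coding bases 1450 to 1509: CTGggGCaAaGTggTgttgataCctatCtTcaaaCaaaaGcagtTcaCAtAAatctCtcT
ALD3, coding bases 1450 to 1509: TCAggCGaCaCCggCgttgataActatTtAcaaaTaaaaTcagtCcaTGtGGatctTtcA

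The sharing was then counted over whole coding sequences in words of 50 bases, on both strands of the whole genome. Of the 1472 words of *ALD2*, 594 (40.4%) also occur elsewhere, and the same count holds for *ALD3*. All 594 are words that each gene shares with the other. With words of 100 bases, 22.5% were shared. The shared words are unevenly placed, with 66.7% of words shared in the 5′ part of either gene, 19.3% in the middle part and 35.0% in the 3′ part, the parts being equal in words. *ALD4*, *ALD5* and *ALD6* had 0 shared words among 1511, 1514 and 1454. How reads with several matches were counted is not given in the sources used here, so the split of reads between *ALD2* and *ALD3* is uncertain. For the other 3 members, no 50-base word of the coding sequence has an exact match elsewhere. Untranslated ends and matches with mismatches were not searched.

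**Figure D1:**
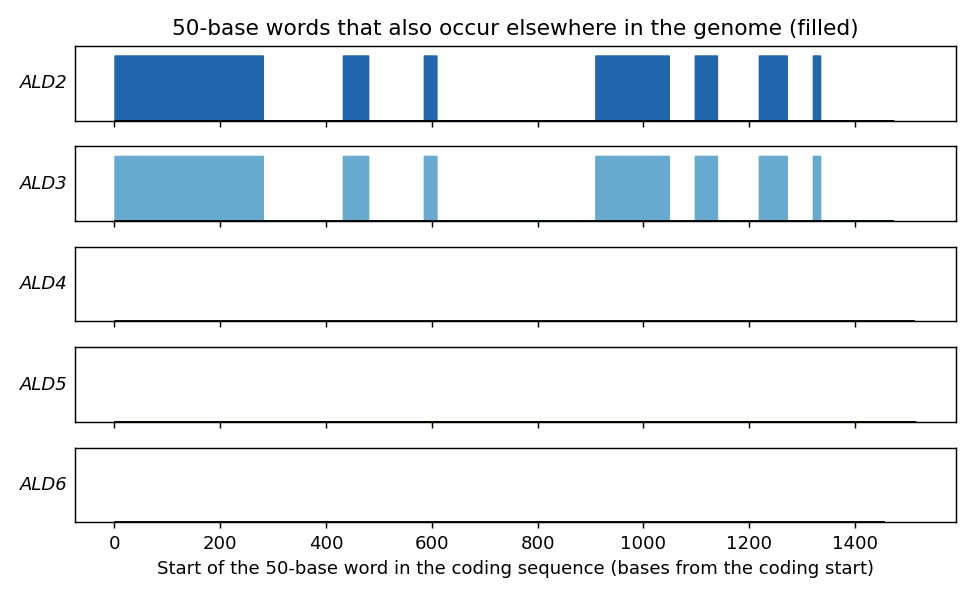
Positions of 50-base words that also occur elsewhere in the genome (filled blocks) along the coding sequence of each member, in bases from the coding start; the black line marks the words tested. *ALD2* and *ALD3* have the same 7 blocks, the longest at the 5′ end, and *ALD4*, *ALD5* and *ALD6* have none.

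*ALD6* was the most abundant member and *ALD3* the least. Per kilobase of coding length the mean CPM was 1353 for *ALD6*, 696 for *ALD4*, 223 for *ALD5*, 29.3 for *ALD2* and 22.7 for *ALD3*, against a median of 59.0 over 5706 protein-coding genes. The cytosolic acetate enzyme and both mitochondrial enzymes thus lay above the median gene, and both beta-alanine enzymes lay below it. The members span a ratio of 59.5 per kilobase between *ALD6* and *ALD3*. Because the table holds no spread between libraries, which neighbours in this order differ beyond replicate error cannot be stated.

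*ALD6* occupies bases 432588 to 434090 of chromosome XVI, plus strand, in 1 exon of 1503 coding bases. The authors' log2 mean CPM of *ALD6* was 10.99, or 2033 CPM, which ranks 36th among the features from the top. Per kilobase, 97.1% of protein-coding genes were lower. *ALD6* alone held 57.3% of the family's summed CPM, so more than any other member it sets the family total of 3546 CPM. That total was 0.354% of the CPM of the table.

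*ALD4* occupies bases 1039840 to 1041399 of chromosome XV, plus strand, in 1 exon of 1560 coding bases. The authors' log2 mean CPM of *ALD4* was 10.08 (1086 CPM, rank 113), and per kilobase 95.0% of protein-coding genes were lower. *ALD5*, the other mitochondrial enzyme, occupies bases 304030 to 305592 of chromosome V, plus strand, in 1 exon of 1563 coding bases. Its log2 mean CPM was 8.44 (348 CPM, rank 554), and per kilobase 85.4% of genes were lower. *ALD4* thus stood 3.13 times above *ALD5* per kilobase, and both together held 40.4% of the family's CPM. *ALD6* was 1.94 times above *ALD4* per kilobase.

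*ALD2* and *ALD3* were the members of low mean level. *ALD2* had a log2 mean CPM of 5.48 in the authors' table (44.5 CPM, rank 4061) and *ALD3* one of 5.11 (34.6 CPM, rank 4494). Per kilobase, 24.0% and 17.7% of protein-coding genes were lower. The ratio of *ALD2* to *ALD3* was 1.29, and with 40.4% of their words in common this ratio depends on how shared reads were assigned. Their sum does not depend on that assignment if shared reads were counted once. It was 79.1 CPM, 2.23% of the family's CPM. On the scale of CPM per kilobase the sum was 52.0, and *ALD6* was 26.0 times and *ALD5* 4.28 times above it, so the pair stayed below the next member even when summed.

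**Figure D2:**
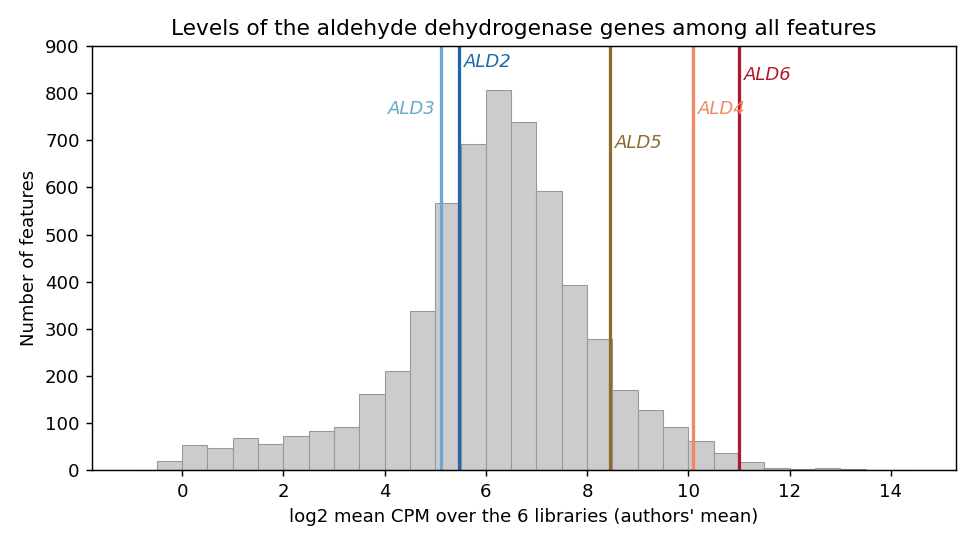
Histogram of the authors' log2 mean CPM over the 6 libraries for all 5793 features (grey bars, number of features in steps of 0.5), with a vertical line at each member. *ALD3* (5.11) and *ALD2* (5.48) lie left of the median of 6.26, and *ALD5* (8.44), *ALD4* (10.08) and *ALD6* (10.99) lie in the right tail.

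The protein sequences fell into pairs. Ald2 and Ald3 are identical at 463 of 506 aligned residues (91.5%), and both are 506 residues long. Ald4 (519 residues) and Ald5 (520 residues) are 63.6% identical. Ald6 (500 residues) is nearer to the mitochondrial enzymes, at 55.2% with Ald4 and 51.1% with Ald5, than to the cytosolic Ald2 (43.8%) and Ald3 (43.6%). The first 25 residues of Ald4 hold 4 basic (arginine or lysine) and 0 acidic residues, and those of Ald5 hold 5 and 0, whereas Ald2, Ald3 and Ald6 have 2 basic residues and 2, 2 and 3 acidic ones. A basic start without acidic residues is a known feature of sequences that direct proteins to mitochondria.

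**Figure D3:**
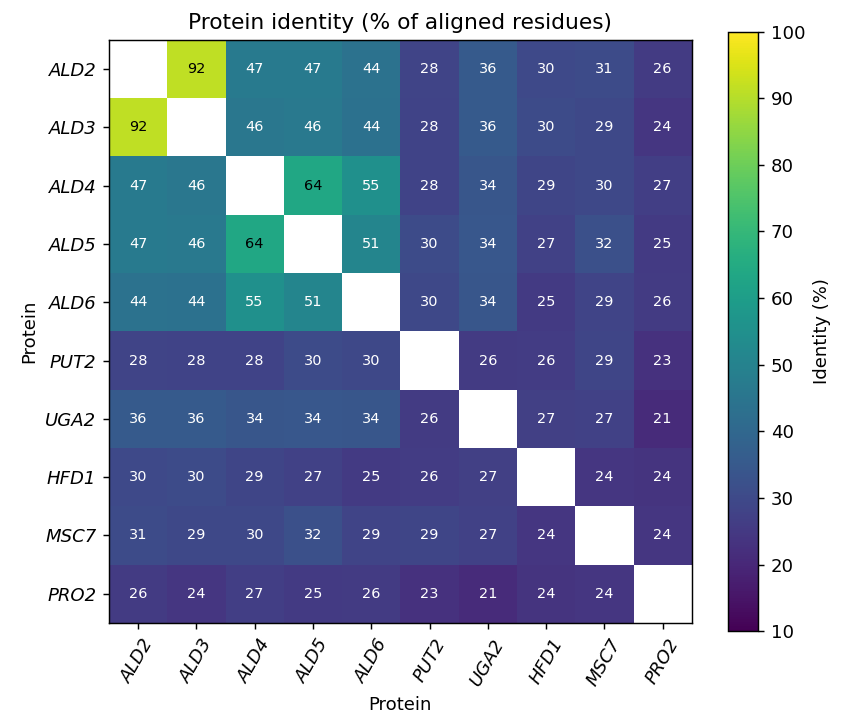
Protein identity, as a percentage of aligned residues, between the 5 members and 5 other yeast proteins of the aldehyde dehydrogenase superfamily; rows and columns are proteins and the colour gives the identity. Ald2 with Ald3 (91.5%) and Ald4 with Ald5 (63.6%) are the closest pairs, and members against the other 5 proteins lie between 24.2% and 35.5%.

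The other 5 proteins of the superfamily were more distant and of middle level. Over 25 pairs of a member with one of them, identity ran from 24.2% to 35.5%, against 43.6% to 91.5% over the 10 pairs of members. Uga2, the succinate semialdehyde dehydrogenase of GABA breakdown, was the nearest, at 34.0% to 35.5%. All 5 genes were in the table. Their log2 mean CPM per kilobase had a median of 6.79, against 7.80 for the family and 5.88 for all protein-coding genes, and 4 of 5 lay above that last value. *MSC7*, whose product is related to aldehyde dehydrogenases by sequence, was the highest at 7.36, and *UGA2* the lowest at 5.48. None of the 5 was as low per kilobase as *ALD2* (4.87) or as high as *ALD5* (7.80), with *ALD2* and *ALD3* taken apart. The summed pair, at 5.70 if shared reads were counted once, lay above *UGA2*.

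The genes around acetaldehyde and acetate spread more widely. All 11 of this list were in the table, 6 above and 5 below the median gene per kilobase, with a median of 6.35. *ADH1*, the main fermentative alcohol dehydrogenase, which reduces acetaldehyde to ethanol, was the highest at 12.80, and *PDC6*, a minor pyruvate decarboxylase, the lowest at 0.14. Members of the list above *ALD6* (10.40 on this scale) numbered 2, *ADH1* and the main pyruvate decarboxylase gene *PDC1*, and 3 lay below *ALD3* (4.51) taken apart. The nearest of those below, at 4.49, was close to *ALD3*, and no spread is known. The summed pair, at 5.70, would lie above more genes of this list. Words shared among near-identical genes of this list were not searched for, and how their shared reads were counted is not known. The 9 genes listed for the polyamine, beta-alanine and pantothenate route, which *ALD2* and *ALD3* serve, had a median of 6.54, with 6 above and 3 below the median gene. *SPE3*, the spermidine synthase, was the highest at 8.10 and *ECM31*, an enzyme of pantothenate synthesis, the lowest at 5.04. All 9 lay above *ALD2* (4.87) and *ALD3* (4.51) taken apart, but this order depends on the handling of shared sequence. The summed pair, at 5.70, lay above *ECM31* and above *FMS1* (5.29), the polyamine oxidase gene, and *ALD2* per kilobase of bases covered by words found once, at 5.28, lay above *ECM31*.

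**Figure D4:**
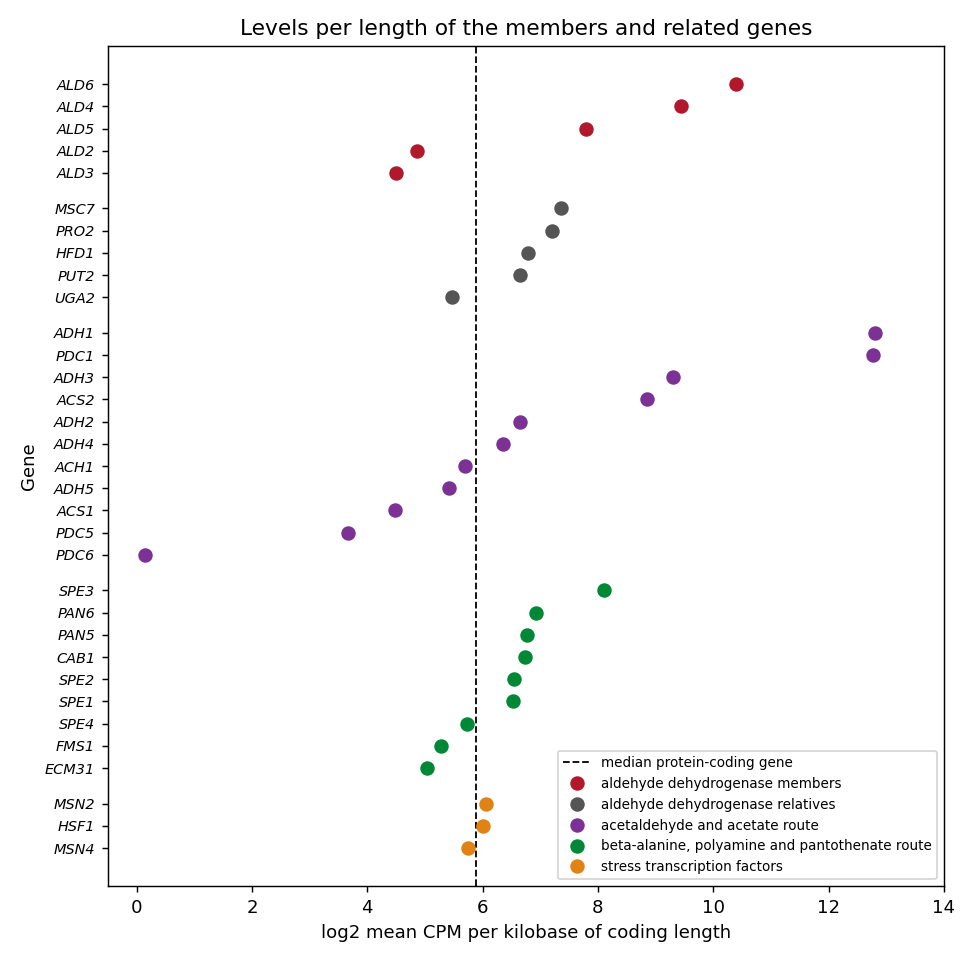
Authors' log2 mean CPM per kilobase of coding length for the 5 members (red) and for 4 lists of related genes (other colours), 1 point per gene, with the median protein-coding gene (5.88) as a dashed line. *ALD6* (10.40), *ALD4* (9.44) and *ALD5* (7.80) lie right of the line. *ALD2* (4.87) and *ALD3* (4.51), drawn apart and per whole coding length, lie left of it. Summed they would lie at 5.70 if shared reads were counted once, which is not known.

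Codon usage was ordered like the levels, except that *ALD2* and *ALD3* changed places. The codon adaptation index scores how far a gene uses the codons of highly expressed genes, here the 50 nuclear genes of highest mean CPM per kilobase without the members. It was 0.571 for *ALD6*, 0.301 for *ALD4*, 0.247 for *ALD5*, 0.221 for *ALD3* and 0.204 for *ALD2*, against a median of 0.175 over 5706 genes. *ALD6* lay above 96.1% of genes and *ALD4* above 89.4%. All 5 members lay above the median gene, also *ALD2* (above 71.7%) and *ALD3* (above 77.5%), whose mean levels lay below the median gene. The reference genes were taken from the same table as the levels, so index and level are not independent measures.

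Both elements that yeast stress transcription factors bind were searched upstream, on both strands, in 250 bases before and 50 bases after the coding start. The stress response element CCCCT is the core bound by Msn2 and Msn4, and GAANNTTC is 2 inverted units of the heat shock element bound by Hsf1. Matches of both motifs can share bases, and no member held both in this window. The stress response element occurred 1 time each in *ALD3*, *ALD4* and *ALD6* and 0 times in *ALD2* and *ALD5*, and 21.6% of 6001 windows of protein-coding genes hold it. The heat shock element occurred 1 time each in *ALD2* and *ALD5* and 0 times in the others, against 11.8% of windows. The match of *ALD5* lies in part or whole in the coding bases, since it was absent in the 250 bases before the start alone. Transcripts of these factors were of middle level, with log2 mean CPM per kilobase of 6.05 for *MSN2*, 6.01 for *HSF1* and 5.75 for *MSN4*.

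The matches before the coding start are shown with 10 bases on each side, because they differ between *ALD2* and *ALD3*, whose coding sequences are alike. Capitals mark the motif, AGGGG being CCCCT on the other strand, and each is printed 5′ to 3′ along the gene. The first base of the match lies 239 bases before the start in *ALD3* (chrXIII:601097-601121, minus strand), 192 in *ALD4* (chrXV:1039638-1039662, plus strand), 249 in *ALD6* (chrXVI:432329-432353, plus strand) and 109 in *ALD2* (chrXIII:603174-603201, minus strand).
ALD3, stress response element: gttgatcagcCCCCTtcttaagctg
ALD4, stress response element: atggaaaatgAGGGGcgggtgtagg
ALD6, stress response element: attcggggtgAGGGGgattcaagac
ALD2, heat shock element: ttttgctcaaGAATGTTCatataaaggg

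Such a match describes the letters and shows neither binding nor a response. A search of 500 bases before the start, a window chosen after the data were seen, was also made for both motifs. The stress response element was found 2 times in *ALD3*, 2 times in *ALD4*, 1 time in *ALD5*, 1 time in *ALD6* and 0 times in *ALD2*. Of all such windows, 34.1% held it at least 1 time and 8.1% held it 2 or more times. *ALD2* thus held no stress response element in either window, and *ALD5* held 1 match of it only in the longer one. In the 500 bases the heat shock element was found 1 time in *ALD2* and 0 times in the other members, against 19.2% of windows.

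The neighbourhoods of the members differed in level. No annotated gene overlaps any of the 5 members (0 each), although the annotation gives no untranslated ends for these genes. On the scale of log2 mean CPM per kilobase, *ALD6* (10.40) lies 288 bases downstream of YPL062W, which was at 1.35, and 432 bases upstream of *MFM1* at 3.93, so the most abundant member lies between genes of low level. *ALD5* lies between *VTC1* (10.27) and *RPS24A* (10.97), a gene of a ribosomal protein, both on its own strand. *ALD4* (9.44) and *GDH1* (9.11), a glutamate dehydrogenase gene, face each other with 278 bases between them, and *NUD1* (4.81), a spindle pole body gene, lies 450 bases upstream of *ALD4* on the same strand. *CEP3*, 193 bases downstream of *ALD3* on the same strand, was at 4.50 and *EAR1*, 785 bases upstream of *ALD2*, at 6.05.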

How the data were processed

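According to the study's methods, the authors used kalign to align RNA-Seq reads to a masked yeast genome and ran the Trinity edgeR pipeline. The submitters' processing notes name R64 and sacCer3 as builds, and Picard and edgeR among the authors' tools. How reads were counted, whether by strand, how reads with several matches were handled and which low counts were filtered are not given in the sources used here. The log2 mean CPM, 1 value per feature over all 6 libraries, was used as the authors deposited it. The deposited table has 3 more columns, namely log2 fold changes with their raw and adjusted p-values. These hold the authors' own comparison of the treatments and were not used, so no test was made. Depth per library is unknown, which leaves the precision of each level unknown.

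CPM was taken as 2 to the power of the log2 mean CPM and divided by coding length. Of 5793 features, 5715 matched a RefSeq locus tag (assembly R64), 76 a symbol and 2 neither. Coding sequences, upstream windows and shared words were read from the RefSeq R64 genome. Proteins were translated from it and aligned globally (BLOSUM62). The members and gene lists were chosen with earlier results of these data known. Text names the members, the highest and lowest gene of each list, neighbours and *URA3*; *PDC1*, *HSF1* and *FMS1* were added after their values were seen. Alternatives were other feature sets, per-length scales, word lengths, alignment denominators, upstream windows and codon references. The code was tested on simulated sequences. Python 3.11.15, numpy 2.4.6, pandas 2.3.3, Biopython 1.88 and matplotlib 3.10.9 were used.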

Additional observations from a re-analysis of the deposited data

How the results depend on the processing

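Of 74 alternative values over 43 results, 65 were counted as close to the value reported and 9 as moved. Several of the 65 could not move, so these counts do not measure robustness. With 0 shared words of 50 bases, *ALD4*, *ALD5* and *ALD6* must also have 0 shared longer words. A motif absent from the window with the coding bases must also be absent from the bases before the start alone. Those counted as close include visible shifts for the pair. With words of 75 bases, the shared part of *ALD2* and *ALD3* was 29.9%, against 40.4% with 50 bases. Per kilobase of bases covered by words found once, *ALD2* was at 5.28 on the log2 scale, against 4.87 per kilobase of coding length. The order of the members by level was the same per gene, per kilobase of coding length and per kilobase of bases covered by words found once in the genome. For *ALD2* and *ALD3* it could not change, because both have 1521 coding bases and 1149 bases covered by such words. These scales therefore do not test how shared reads were assigned. In the other members such words cover the whole coding length, 1503 to 1563 bases, so their order could hardly move either. Each member stayed on its side of the median over protein-coding genes, over features at or above 1 on the log2 scale and per kilobase. Summing *ALD2* and *ALD3* gave a log2 mean CPM of 6.30 per gene, which lies above 51.1% of features, whereas each gene alone lay below the median. That sum assumes that shared reads were counted once. With words of 100 bases, the shared part of *ALD2* and *ALD3* was 22.5%. Without the coding bases, the heat shock element of *ALD5* was gone (0 matches), and with 500 bases the stress response element moved to 2 matches in *ALD3*, 2 in *ALD4* and 1 in *ALD5*. No paired analysis was possible because only 1 pooled level per gene was deposited. Other size factors, an unfiltered fit and leave-one-out fits could likewise not be run, and whether 1 library decides a level is unknown.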
